A study of Mus musculus with 9 samples.

Results

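The genes described here encode the nuclear subunits of respiratory complexes II, III, IV and V, with the electron carrier cytochrome c. They were taken by symbol from the deposited table (Sdha to Sdhd, all Uqcr genes, Cyc1, Cycs, all genes from Cox4 to Cox8, and all Atp5 genes under their older names), which gave 49 of 27095 loci. All 49 are protein-coding in GENCODE M21. RNA was sequenced from wild-type C57BL/6 mouse fetuses (C57BL/6J in the study's methods) on gestational day 17, with 3 fetuses in each of 3 groups. Dams of the control group received lactated Ringer's solution by intraperitoneal injection on gestational day 7, and dams of both exposed groups received EtOH at 2.9 g/kg by the same route and on the same day. Exposed fetuses were split by their morphology into an affected group, scored with ocular and cortical patterning defects, and an unaffected group that lacked them. The labels call the tissue fetal brain and the study's methods call it cortex. For each locus and group the authors deposited 1 FPKM (fragments per kilobase of exon, scaled to the mapped fragments of a library) over the 3 animals, so no value here has an error between animals and no difference was tested.

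In the inner mitochondrial membrane, complex II passes electrons from succinate to ubiquinone, complex III passes them on to cytochrome c, and complex IV uses them to reduce oxygen. Complexes III and IV pump protons, and complex V, the ATP synthase, lets the protons flow back to make ATP. The developing brain draws on this pathway for its energy as neurons mature. The catalytic centre of complex IV, cytochrome b of complex III and the a subunit of complex V are encoded by the mitochondrial genome and were not analysed here.

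On the deposited FPKM scale, transcripts of nearly all members were lowest in the affected group and highest in the unaffected group, and scaling to the FPKM sum of all loci turned the latter direction, with a member median of -0.21 in unaffected against control offspring. With a filter of at least 1 FPKM in the mean of the 3 groups, 45 of the 49 members remained among 15548 loci. Of these 45, 44 had a lower level in affected than in control offspring, where 47.0% of all loci were lower, and 1 was higher, against 52.9% of all loci. Counts of larger differences use a limit of 0.32 on the scale of log2(FPKM + 0.1). A level lower by at least this limit was found for 24 of the 45 (53.3%), against 11.3% of all loci, and 0 members were higher by that amount, against 12.1%. Over the members the median log2 fold change was -0.34, and that of all loci was 0.02. Against unaffected offspring, 37 of the 45 were lower in the affected group by at least the limit (18.1% of all loci), 0 were higher (20.3% of all loci), and the median was -0.47. In unaffected against control offspring, 43 of the 45 were higher (51.6% of all loci) and 2 were lower (48.3% of all loci), with a median of 0.13, but only Cox6b2 was higher by the limit (5.45% of all loci) and 0 were lower by that amount (6.80% of all loci). The order unaffected, control, affected from the highest to the lowest level held for 43 of the 45 members. It held for 30.9% of all loci, and for 58.3% of loci with a mean of at least 50 FPKM. Under that scaling 10 members were lower by the limit in affected against unaffected offspring (4.02% of all loci). Under scaling to the sum of named loci 10 were lower in affected against control (4.89% of all loci) and 13 in affected against unaffected offspring (5.43% of all loci). The members above 0 in affected against control offspring then numbered 8 under the named sum (Sdha, Sdhc, Cox4i2, Atp5a1, Atp5b, Atp5d, Atp5g2 and Atp5sl) and 1 under the sum of all loci (Sdha), and in affected against unaffected offspring 5 (Sdha, Cox7a1, Atp5a1, Atp5d and Atp5sl) and 8 (these with Uqcrc1, Cycs and Atp5b). Each scaling multiplies all loci of a group by the same factor. The distance of the member medians from the median of all loci is therefore fixed, at -0.36, -0.48 and 0.12 (unaffected against control). The 3 comparisons share their groups, so they are not independent of each other. In bulk tissue, fewer cells of a type and less RNA per cell cannot be told apart.

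**Figure D1:**
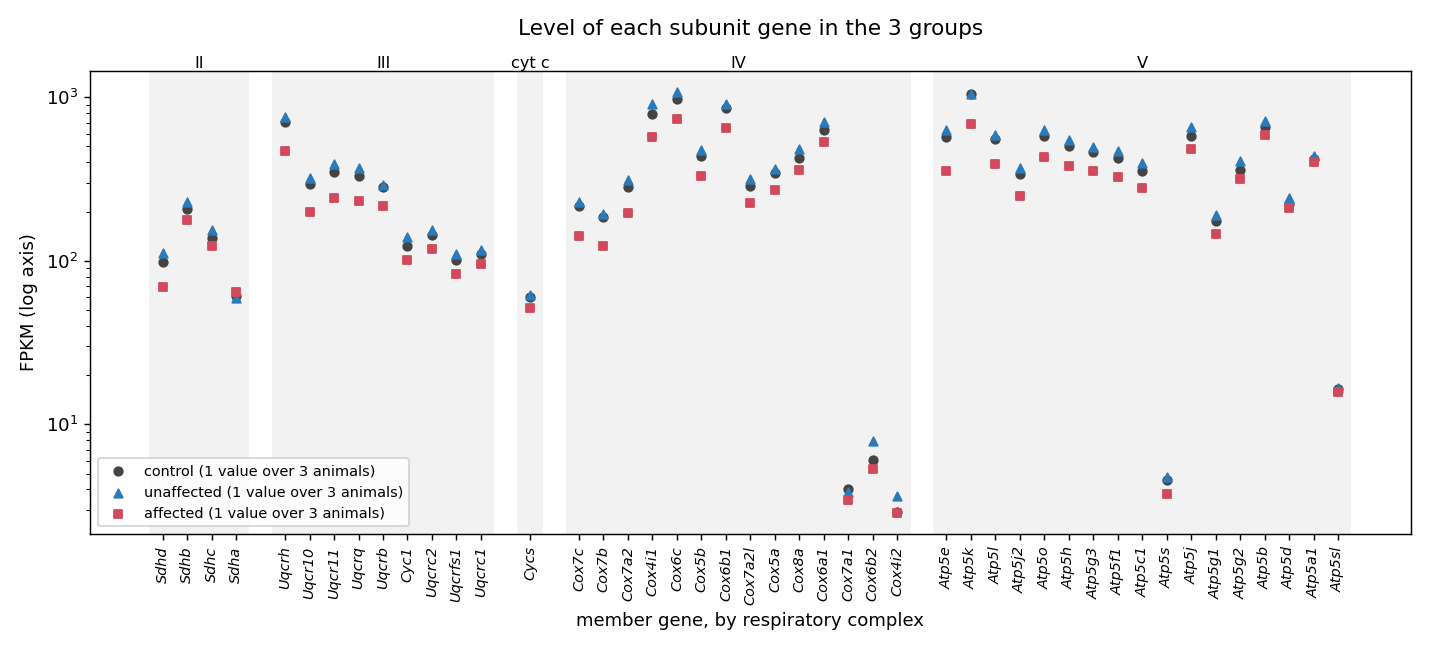
FPKM on a log axis of the 45 members with a mean of at least 1 FPKM, by complex, with 1 deposited value per group (circles control, triangles unaffected, squares affected). On this deposited scale the square is the lowest of the 3 values for every member except Sdha, while scaling to the FPKM sum of all loci or of named loci puts up to 8 members above 0 in a comparison with the affected group.

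Marker lists of other cell types also differed between groups, and the depth of the libraries is unknown. Of the blood markers, 5 of the 6 loci in the table were above 1 FPKM, and Slc4a1, a red cell membrane protein, averaged 0.904. Their summed FPKM was 5814 in control, 7521 in exposed unaffected and 3648 in exposed affected fetuses, in the same order as the members. The sum over 6 microglial markers had that order too (49.2, 51.6 and 42.0), but among its genes only C1qb did. Choroid plexus markers, nearly all of whose sum is Ttr, summed to 991, 1316 and 1104, and 6 progenitor markers to 370.5, 385 and 447. Of these, Vim (most of the sum), Mki67 of cycling cells (6.49, 6.08 and 10.7), Eomes (33.1, 33.8 and 41.5) and Sox2 (56.3, 57.4 and 65.2) were highest in the affected group, while Hes5 was lowest there (12.7, 14.7 and 10.7) and Pax6 highest in the unaffected group (16.7, 18.6 and 18.0). Sums for meninges (87.7, 81.0 and 78.8) and endothelium (72.1, 70.7 and 72.6) hold genes that differed in opposite ways. In the affected group, Cdh5, Flt1, Tie1 and Pecam1 of the endothelium were highest (Cdh5 7.36, 6.59 and 9.83), Cldn5 and Slco1c1 were lowest, and of the meningeal genes Dcn was lowest (31.6, 28.1 and 22.1) and Foxc1 and Col1a1 were highest. The 5 cortical markers (Emx1, Neurod2, Neurod6, Tbr1 and Bcl11b) had means between 35.5 and 401 FPKM and summed to 693 in control, 626 in exposed unaffected and 768 in exposed affected fetuses, in the opposite order, which Emx1 (37.0, 39.0 and 37.0) did not share. All 8 hindbrain and cerebellum markers were below 1 FPKM. At 2099 loci below 0.1 FPKM in both the control and the affected group, 1 fragment in 1 library can make up the value. There the 9 most frequent affected to control ratios, shared by 193 loci, lay between 0.616 and 0.885. Read as depths of single libraries, they would put affected libraries at 1.13 to 1.62 times the depth of control libraries. For unaffected against control libraries the same reading gave 1.04 to 2.18, and for affected against unaffected libraries 1.04 to 1.42. These ranges cannot all hold for every pair of libraries, so the ratios do not give the depth of the libraries. The part of blood, cell composition and depth in the results below was not tested.

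Transcript length also moved with the fold changes. The members have short transcripts, with a median of 742 nt against 2705 nt over all loci with an annotated length. Among all loci with a mean of at least 1 FPKM, the 1182 with transcripts under 1000 nt had a median log2 fold change of -0.28 in affected against control offspring, and the 3153 with at least 4000 nt had 0.18. Of the loci under 1000 nt that also had at least 50 FPKM, 454 in number, 50.9% were lower by the limit and the median was -0.33. The 24 members under the same limits had a median of -0.41, and 19 of them (79.2%) were lower by the limit. Between 1000 and 2000 nt and at that level, the 584 loci had a median of -0.17 and the 12 members -0.28. Much of the distance between the members and all loci was thus shared with short, abundant transcripts in general, and a smaller distance remained: after subtraction of the running median over loci of like length, the member median was -0.13 relative to control and -0.15 relative to unaffected fetuses, and 35 of the 45 were below 0 against control. By complex, the medians against control after this subtraction were -0.075 for II, -0.18 for III, -0.096 for IV and -0.15 for V. In unaffected against control offspring the same subtraction took the member median from 0.13 to 0.01. Within the members, Spearman's rho between length and log2 fold change (affected relative to control) was 0.55 over 45 genes, which share the same libraries and are not independent. Over 12333 loci it was 0.56.

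**Figure D2:**
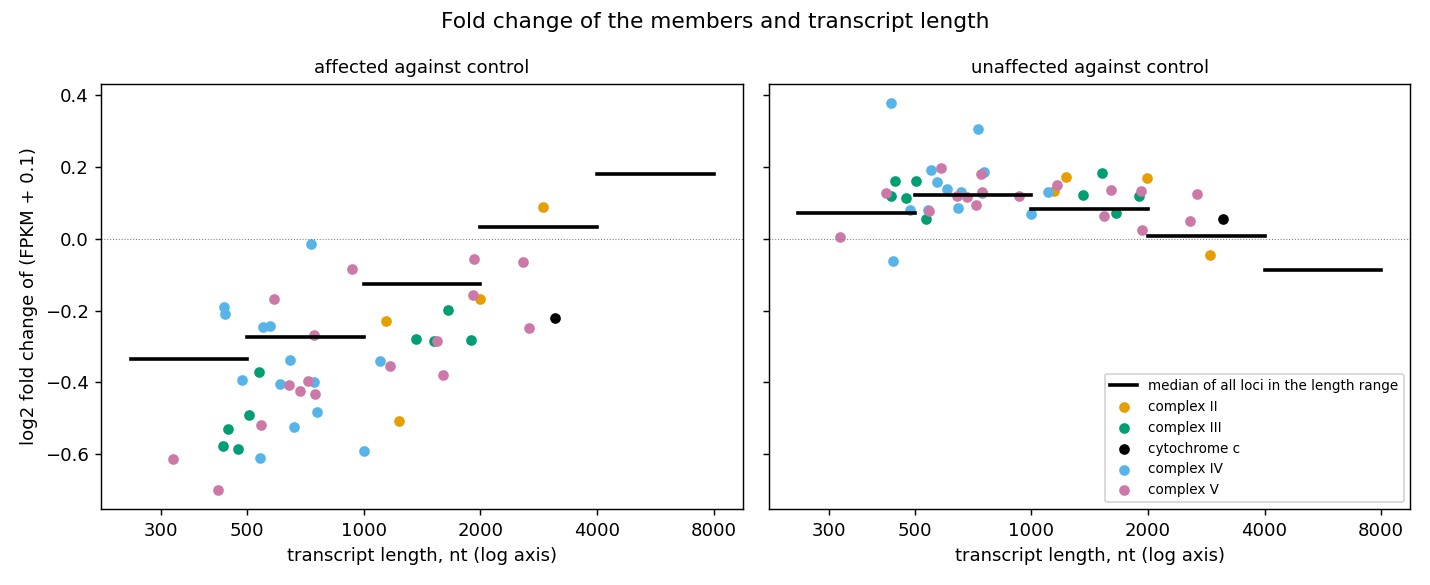
Log2 fold change against transcript length (log axis) for the 45 members, coloured by complex, in affected against control (left) and unaffected against control offspring (right). Black lines are the medians of all loci in 5 length ranges, and most members on the left lie below the line of their range.

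The promoters of respiratory chain genes are known for sites of the transcription factors NRF1, GABP (an ETS factor) and YY1. Promoter windows from RefSeq (GRCm38.p6, 250 bases before to 50 after the start) were found for 38 members, 42 windows in all. The NRF1 motif searched is the run of 10 letters in capitals in the Sdha window below, with any base at its position 6, on either strand. It was in 10 of the 42 windows (23.8%) and in 4.6% of 32851 windows over all genes. The ETS letters CCGGAAG, on either strand, were in 12 windows (28.6%) and in 8.86% of all windows. The YY1 letters, the run of 10 in capitals in the Atp5j window below, were in 3 windows (7.14%), 1 of Atp5j and 2 of Atp5sl that hold the same site, and in 0.852% of all windows. None of these motifs contains another. Such a match is a run of letters and not a shown site. Among members above the filter, the median of affected relative to control, on the log2 scale, was -0.38 in the 10 genes with the NRF1 letters and -0.34 in the 26 without them, and the ranges overlapped. For the ETS letters it was -0.46 in 12 genes and -0.31 in 24, with overlapping ranges. Stretches of 30 bases around these letters are printed below for members with large and with small differences, beside their values.

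Complex II is the one complex with no subunit from the mitochondrial genome, and its 4 genes were not alike. Sdha (chr13:74322255-74350240 of mm10), the flavoprotein that oxidises succinate, had an FPKM of 60.8 in control, 59.0 in exposed unaffected and 64.7 in exposed affected fetuses. It was the only member of any complex that was highest in the affected group, with log2 fold changes of 0.09 relative to control and 0.13 relative to unaffected fetuses. Sdhd (chr9:50596340-50603849), the small membrane anchor that helps bind ubiquinone, had 99.0 in control, 112 in exposed unaffected and 69.6 in exposed affected fetuses. Its log2 fold change was -0.51 relative to control and -0.68 relative to unaffected fetuses, the lowest in the complex. The iron-sulfur subunit Sdhb had 208, 228 and 178 in the same order of groups, and the large anchor Sdhc 138, 155 and 123. Both lay between the other genes, with log2 fold changes against control of -0.23 and -0.17. The level of Sdhd relative to Sdha, in FPKM per FPKM, was 1.63 in control, 1.89 in exposed unaffected and 1.08 in exposed affected fetuses. The 2 genes also differ in transcript length, with 2900 nt for Sdha and 1231 nt for Sdhd. After subtraction of the running median over like length, their values against control were 0.05 and -0.33. In complex II 1 of 4 genes was lower by the limit against control (11.3% of all loci), and the median of the complex was -0.20. This median was -0.075 after subtraction of the trend over length, -0.030 after that over FPKM and -0.023 under scaling to the sum of named loci. Sdha and Sdhd are also shown by their promoter windows, where capitals mark the NRF1 letters in the first pair (1 of 3 such runs in the Sdha promoter) and the reverse complement of the ETS letters in the last:
Sdha, chr13:74350276-74350305, minus strand: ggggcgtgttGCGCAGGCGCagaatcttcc
Sdhd, chr9:50603909-50603938, minus strand: tcgctggggtGCGCACGCGCggtggcagcg
Sdhd, chr9:50603877-50603906, minus strand: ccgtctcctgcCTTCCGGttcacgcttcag
The gene with the highest and the gene with the lowest fold change in complex II thus both carry the NRF1 letters.

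Complex III showed a difference between its small subunits and its core. All 5 small supernumerary subunits, which surround the catalytic core, were lower in the affected than in the control group by at least the limit of 0.32. Of all loci, 11.3% were. The 5 had a median log2 fold change of -0.53. Uqcrh (chr4:116066965-116075070), the hinge protein that touches cytochrome c1, had the highest level of the complex, with 705 FPKM in control, 762 in exposed unaffected and 469.9 in exposed affected fetuses. Its log2 fold change was -0.58 relative to control and -0.70 relative to unaffected fetuses. Uqcr10 (chr11:4701968-4704344) had 297, 322 and 199 (-0.58 against control). Uqcr11 (chr10:80402997-80406821) had 349.8, 391 and 242, with -0.53. Uqcrq had 328, 367 and 233, with -0.49, and Uqcrb 282, 292 and 218, with -0.37. In all 5 the affected group was lowest, and on the deposited scale the unaffected group was highest.

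None of the 4 core genes of complex III reached the limit against control, and their median was -0.28. Against unaffected offspring 3 of the 4 were lower by the limit (18.1% of all loci), and the median was -0.40. Uqcrc1 (chr9:108936648-108949641), a core protein, had 110.4 FPKM in control, 116 in exposed unaffected and 96.2 in exposed affected fetuses, with the smallest difference of the complex (-0.20). The other core protein, Uqcrc2, had 143, 155 and 117. Cyc1, the cytochrome c1 that hands electrons to cytochrome c, had 124, 140.4 and 101. Uqcrfs1, the Rieske iron-sulfur protein, had 101, 110.3 and 83.6. Transcripts of the core genes have a median of 1586.5 nt and those of the small subunits 474.5 nt, so role and length go together here and cannot be told apart. The level of Uqcrh relative to Uqcrc1 was 6.39 in control, 6.57 in exposed unaffected and 4.89 in exposed affected fetuses. In the following windows, capitals mark the reverse complement of the ETS letters for Uqcrh, the ETS letters for Uqcr11 and the NRF1 letters for Uqcrc1:
Uqcrh, chr4:116075062-116075091, minus strand: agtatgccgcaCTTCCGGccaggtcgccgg
Uqcr11, chr10:80406869-80406898, minus strand: ttctctcctccCCGGAAGtagatgtcaatg
Uqcrc1, chr9:108936668-108936697, plus strand: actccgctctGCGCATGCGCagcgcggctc

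Cycs (chr6:50562563-50566474), cytochrome c itself, which also triggers apoptosis once it leaves mitochondria, had 59.7 FPKM in control, 62.1 in exposed unaffected and 51.2 in exposed affected fetuses. Its log2 fold changes of -0.22 relative to control and -0.28 relative to unaffected fetuses were under the limit, and they became -0.046 under scaling to the sum of named loci and 0.031 under scaling to the sum of all loci, respectively. RefSeq names 3 pseudogenes of Cycs, and reads of such copies could have been counted with it. The same holds for 8 members in all, and Atp5k has the most named copies with 4.

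Of the 18 complex IV genes in the table, 14 passed the filter, and 9 were lower in the affected than in the control group by the limit (11.3% of all loci). The median log2 fold change of the 14 was -0.37 (-0.096 after subtraction of the trend over length). Cox7c (chr13:86044798-86046795), a small subunit inside the membrane, had 216 FPKM in control, 228 in exposed unaffected and 141 in exposed affected fetuses. Its log2 fold change was -0.61 relative to control and -0.69 relative to unaffected fetuses. Cox7b (chrX:106012483-106022450), another small membrane subunit, had 185, 194 and 123, with -0.59 against control. Cox7a2, the common form of subunit 7A, had 283, 310.2 and 197, with -0.52. Cox4i1, the common form of subunit 4 and a contact point for ATP, had 794, 904 and 568, with -0.48 relative to control and -0.67 relative to unaffected fetuses. These 4 were the members of the complex with the lowest values, and in each the affected group was lowest.

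The remaining common subunits of complex IV differed less. Cox6c, the most abundant member of the complex, had 975 FPKM in control, 1073 in exposed unaffected and 737 in exposed affected fetuses (-0.40 against control). Cox6b1, which joins the 2 monomers of the enzyme, had 855, 904 and 650.6, with -0.39. On the matrix side, Cox5b had 437, 477 and 332, with -0.40, and Cox5a 342, 363 and 271, with -0.34. All of these had the affected group lowest. Cox8a, with 423, 483 and 357, and Cox6a1, with 634, 708 and 536, stayed under the limit at -0.25 and -0.24. Cox7a2l, which is no subunit but links complexes III and IV, had 287, 314 and 227, with -0.34. In the window of Cox6b1 (chr7:30626124-30626153) capitals mark the reverse complement of the ETS letters, and in that of Cox6a1 (chr5:115349056-115349085) the NRF1 letters:
Cox6b1, minus strand: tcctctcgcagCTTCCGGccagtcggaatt
Cox6a1, minus strand: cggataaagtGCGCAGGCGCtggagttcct

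Isoforms of complex IV known from muscle, lung and testis were scarce beside the common forms. Cox4i2, the lung form, had 2.92 FPKM in control, 3.64 in exposed unaffected and 2.89 in exposed affected fetuses, and made up 0.366%, 0.401% and 0.505% of the subunit 4 message. Cox6b2, the testis form, had 6.07, 7.92 and 5.30. Among members above the filter it had the largest difference between unaffected and control offspring, a log2 fold change of 0.38. Cox7a1, the heart and muscle form, had 4.02, 3.85 and 3.46 and made up 1.40%, 1.22% and 1.73% of the subunit 7A message. Among members above the filter it was the only one besides Sdha that was lower in unaffected than in control offspring on the deposited scale, where upper-quartile scaling gave 3 such members, the sum of named loci 10 and the sum of all loci 44. Of 9 muscle markers, 1 was above 1 FPKM. The 4 members under the filter were Cox6a2, with up to 0.207 FPKM, Cox7b2, with up to 0.350, Cox8b, listed at 0 in control and affected offspring, and Cox8c, listed at 0 in all groups.

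Complex V had 17 members, all above the filter, and held 46.3% of the summed FPKM of all members in control offspring. On the deposited scale all 17 were lower in the affected than in the control group (47.0% of all loci), 9 of them by the limit (11.3% of all loci). Their median log2 fold change was -0.35, and Atp5a1, Atp5b, Atp5d, Atp5g2 and Atp5sl turned under scaling to named loci. All 17 were higher in unaffected than in control offspring on the deposited scale (51.6% of all loci). The median there was 0.12, which turned to -0.22 under scaling to the FPKM sum of all loci. The F1 head, which makes ATP, showed the widest spread. Atp5e (chr2:174461075-174464101), the small epsilon subunit of the rotor, had 575 FPKM in control, 628 in exposed unaffected and 354 in exposed affected fetuses. At -0.70 relative to control and -0.83 relative to unaffected fetuses it had the lowest log2 fold changes of all 45 members. The alpha subunit Atp5a1 had 421, 436 and 403, with -0.06 relative to control and -0.11 relative to unaffected fetuses, the latter of which turned to 0.13 under scaling to named loci, 0.19 under scaling to all loci and 0.25 after subtraction of the trend over FPKM. The catalytic beta subunit Atp5b had 654, 717 and 587, with -0.16 against control. The gamma rotor subunit Atp5c1 had 355, 394 and 278, with -0.35, and the delta subunit Atp5d 224, 243 and 211, with -0.08. Atp5e also has a transcript of 421 nt, shorter than the 931 nt or more of the other F1 genes, and after subtraction of the running median over like length its values were -0.38 and -0.37, so that its role and its length cannot be told apart. The level of Atp5e relative to Atp5a1 was 1.37 in control, 1.44 in exposed unaffected and 0.880 in exposed affected fetuses.

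All 3 small membrane subunits of complex V were lower in the affected than in the control group by the limit (11.3% of all loci). Their median log2 fold change was -0.52. Atp5k (chr5:108433253-108434378), subunit e, which helps the enzyme form dimers, had the highest level of the complex, with 1045 FPKM in control, 1048 in exposed unaffected and 683 in exposed affected fetuses. It had a log2 fold change of -0.61 relative to control, and of 0.00 in unaffected relative to control fetuses. Atp5l (chr9:44913248-44920742), subunit g, had 557, 588 and 389, with -0.52. Atp5j2, subunit f, had 338, 371 and 250.5, with -0.43. The peripheral stalk, which holds the head still, had a median of -0.39 over 4 genes. In it Atp5o (OSCP) had 580.0, 629 and 432, Atp5h 507, 550.0 and 382, Atp5f1 425, 467 and 327, and Atp5j 579.6, 657 and 481, of which Atp5j alone stayed under the limit (-0.27).

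Subunit c of the proton ring is made from 3 genes that differ in their targeting sequence and give the same mature protein. Atp5g3 had 465 FPKM in control, 496 in exposed unaffected and 353 in exposed affected fetuses, Atp5g2 357, 409 and 318, and Atp5g1 174, 189.7 and 146. Their log2 fold changes against control were -0.40, -0.17 and -0.25. The sum of the 3 was 996 in control, 1095 in exposed unaffected and 817 in exposed affected fetuses, and the share of Atp5g3 in it was 46.7%, 45.3% and 43.2%. Of the matched genes that are no ATP synthase subunits, Atp5s (factor B) had 4.57, 4.78 and 3.73, and Atp5sl, now Dmac2, an assembly factor of complex I, had 16.4, 16.7 and 15.8, with the smallest difference of the symbols matched under complex V (-0.06). The table gives Atp5d, Atp5j, Uqcrq and Cox6a2 on loci over 2 times as long as the RefSeq gene, so fragments of neighbouring genes may be in their values. In the complex V windows, capitals mark the reverse complement of the ETS letters for Atp5e and Atp5l (1 of 2 such runs), the NRF1 letters for Atp5k and the YY1 letters for Atp5j:
Atp5e, chr2:174464185-174464214, minus strand: tacggccacagCTTCCGGtagccgctcggc
Atp5l, chr9:44920700-44920729, minus strand: tgccgcgggtcCTTCCGGgggtgacattca
Atp5k, chr5:108434430-108434459, minus strand: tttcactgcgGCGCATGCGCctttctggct
Atp5j, chr16:84835045-84835074, minus strand: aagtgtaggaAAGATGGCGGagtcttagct

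**Figure D3:**
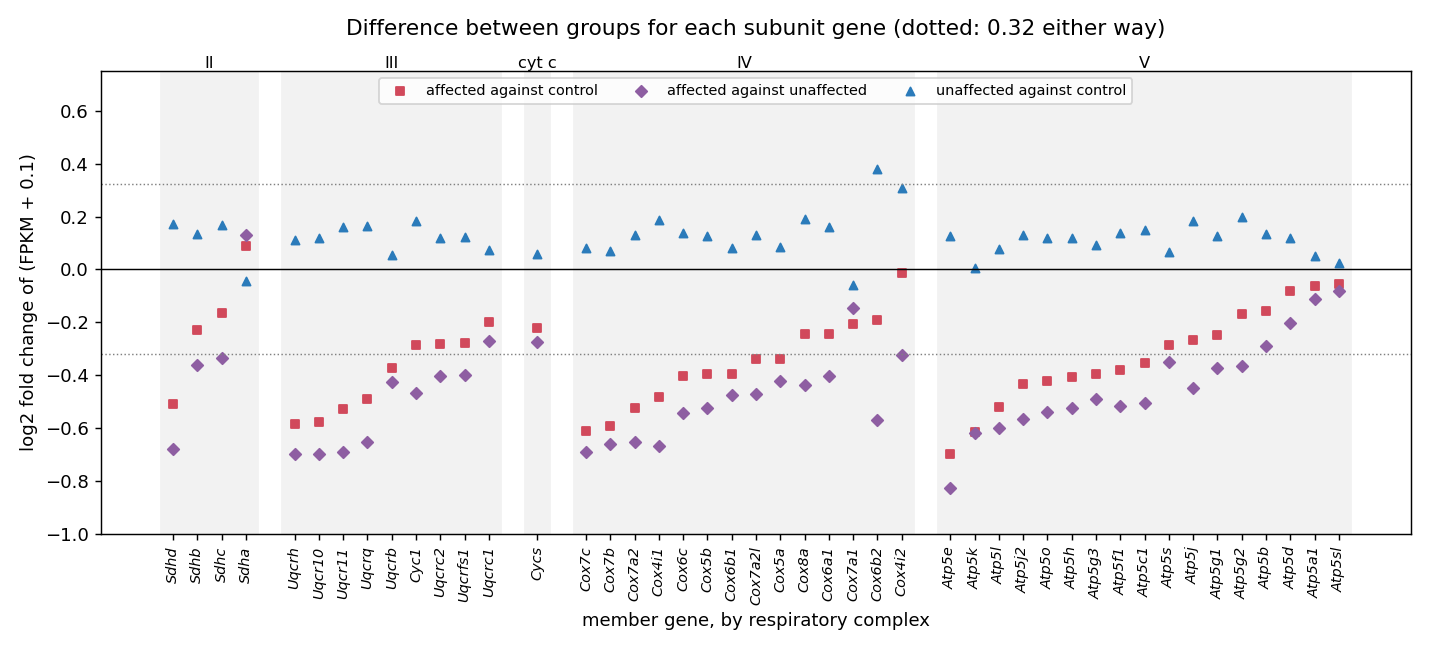
Log2 fold change of the 45 members by complex, in affected against control (squares), affected against unaffected (diamonds) and unaffected against control (triangles). Dotted lines mark the limit of 0.32, and within each complex the genes are ordered by affected against control, from Atp5e at -0.70 to Sdha at 0.09 over all complexes.

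Across complexes, the small supernumerary subunits had lower values than the catalytic and core subunits. Of 18 common supernumerary subunits in complexes III, IV and V, 16 (88.9%) were lower in the affected than in the control group by the limit. The share was 11.3% of all loci and 50.9% of loci under 1000 nt with at least 50 FPKM. The 18 had a median log2 fold change of -0.49 and a median length of 547 nt. Of 11 catalytic or core subunits in complexes II, III and V, 2 were (Atp5c1 and Atp5e, 18.2%), against 16.4% of loci of 1000 to 2000 nt at that level. The 11 had a median of -0.23 and a median length of 1520 nt. Against unaffected offspring, all 18 and 6 of the 11 were lower by the limit (18.1% of all loci). Class and length go together here and cannot be told apart. Summed over all members, the FPKM was 15728 in control, 17093 in exposed unaffected and 12010 in exposed affected fetuses, a ratio of 0.764 between affected and control. Among the complexes, this ratio was highest for complex II, at 0.859 (506 in control and 435 in affected offspring), and lowest for complex III, at 0.722 (2439 and 1760). It was 0.762 for complex IV and 0.771 for complex V. Sums weigh the abundant genes most. The share of each complex in the total differed little, with complex V at 46.3% in control, 45.9% in exposed unaffected and 46.7% in exposed affected fetuses.

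**Figure D4:**
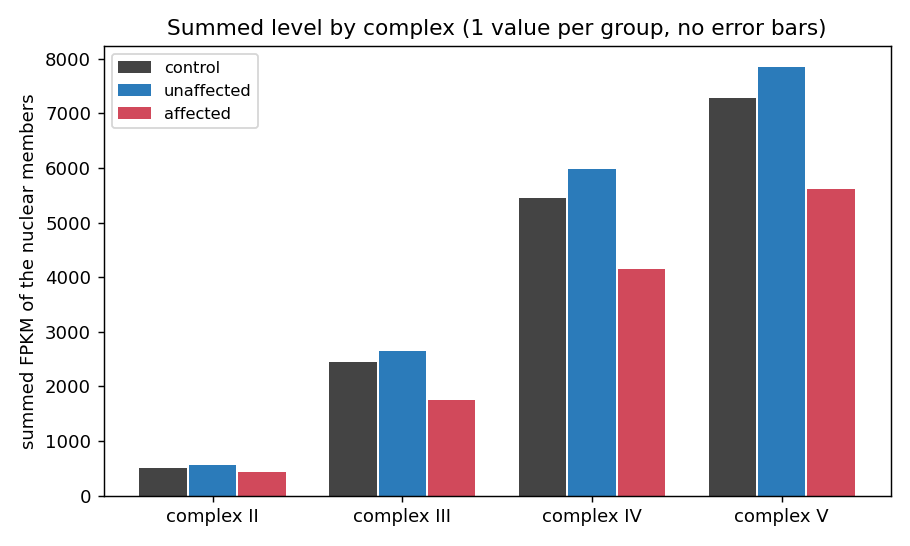
Summed FPKM of the nuclear members of complexes II, III, IV and V in control, unaffected and affected offspring, with 1 value per group and no error. On the deposited scale the affected bar is the lowest and the unaffected bar the highest in each complex, while scaling to the FPKM sum of all loci turns the medians of unaffected against control to between -0.22 and -0.18.

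Assembly factors of these complexes, the ATP synthase inhibitor Atpif1 and a few subunits outside the symbol rule gave 37 loci above the filter, with Cox20 listed as 2 loci at the same position. Of these, 32 were lower in the affected than in the control group (47.0% of all loci) and 14 by the limit (11.3% of all loci). Their median log2 fold change was -0.24. The lowest value was that of 1110001J03Rik, -0.69, with 69.8, 79.9 and 43.2 FPKM in the 3 groups, followed by 2010107E04Rik at -0.61. Usmg5, a small ATP synthase subunit, had 964 FPKM in control, 1016 in exposed unaffected and 634 in exposed affected fetuses, with -0.60. Ndufa4, first placed in complex I and now in complex IV, had 657, 692 and 435, with -0.59. Pet100, Coa3, Cox14 and Coa4, which serve complex IV assembly, lay between -0.51 and -0.40. Atpif1, which blocks ATP hydrolysis when the proton gradient fails, had 1696, 1978 and 1298, with -0.39. The 5 loci with positive values were Cox15 (0.19), Coa5 (0.11), Cox10 (0.11), Cox18 (0.026) and Cmc1 (0.013), all under the limit. Cox15 has the longest annotated transcript length of the list, 4798 nt. The 39 complex I genes above the filter, Ndufa4 included, had a median of -0.36 against control and 0.14 in unaffected against control, and 75 cytosolic ribosomal protein genes had -0.40 and 0.14. The member medians of -0.34 and 0.13 lie close to both, and no difference between these sets was tested.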

How the data were processed

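The study sequenced 50-bp paired-end TruSeq libraries of 9 fetuses. The submitters' processing notes name Bowtie2 2.2.4.0, Cufflinks and Cuffdiff and the build mm10, while the methods name STAR and also Bowtie with TopHat. The authors deposited FPKM with 1 value per group and locus. The table's fold changes, test statistics, p-values, q-values and significance calls are the authors' own comparisons and were not used. Columns of single animals numbered 0, so no error, test or fragment count per gene could be given, and 3 animals per group limit the precision.

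Groups follow the labels. Log2 fold changes are of FPKM + 0.1. Loci with a mean of at least 1 FPKM were kept, and a log2 fold change of 0.32 was the limit for a count. Every member is accounted for, and in each complex the most abundant gene, the 4 with the lowest values, the 1 with the highest, the isoforms, the subunit c genes and any gene against the trend are named. Members, lists, motifs and limits were chosen with earlier results of these data known. Transcript length is the median over basic transcripts in GENCODE M21 (97.4% of named loci above the filter had one), and the running median spans 501 loci. The alternatives changed the pseudocount, filter, fold, scaling and membership and subtracted trends. Python 3.11.15, numpy 2.4.6, pandas 2.3.3 and matplotlib 3.10.9 were used. The fold functions were tested on simulated data. From the cortical marker list, 2 genes were left out and are not reported here.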

Additional observations from a re-analysis of the deposited data

How the results depend on the processing

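No paired analysis was possible because the table gives 1 value per group, and for the same reason no animal could be left out. Of the alternatives to the counts and medians over all members, 91 of 117 stayed within 1.5 times (counts) or 0.1 on the log2 scale (medians). Some of these could not move or could hardly move. Leaving out loci listed under several gene names removed 0 members, and upper-quartile scaling shifted unaffected against control by only -0.0058. The tally is therefore no measure of how firm the results are. Lower members numbered 40 at 1.1-fold (28.6% of all loci) and 4 at 1.5-fold (3.01%) against control, and 12 at 1.5-fold against unaffected (4.91%). Higher members in unaffected against control offspring numbered 14 at 1.1-fold (19.1% of all loci), 0 at 1.5-fold (2.46%), 0 with a filter of 10 FPKM (2.41%), 0 without tissue isoforms, and 2 without a filter (7.37%), where 1 was lower (8.25%). Minus the running median over like transcript length, the member medians were -0.13 (affected against control), -0.15 (affected against unaffected) and 0.011 (unaffected against control). Minus that over like FPKM, added after seeing the data, the first 2 were -0.16 and -0.16.

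Scaling to the same FPKM sum over all loci shifted all loci by -0.34 in unaffected against control and by 0.31 in affected against unaffected offspring. In that sum, 3 unnamed loci of at most 71 bp hold 34.3% of the control, 41.2% of the unaffected and 38.1% of the affected total. The member median then reversed to -0.21 in unaffected against control offspring, with 3 lower (50.2% of all loci) and 0 higher, and complexes II, III, IV and V (-0.18, -0.22, -0.20, -0.22) and cytochrome c (-0.28) reversed with it. In affected against unaffected offspring it was -0.16, with 10 lower and 1 higher (49.0% of all loci), and cytochrome c reversed to 0.031. Scaling to the sum over named loci, also added after seeing the data, shifted affected against control by 0.17 and affected against unaffected by 0.25. It gave medians of -0.17 and -0.22, with 10 and 13 lower, 1 higher against unaffected (42.7% of all loci) and 0 higher in unaffected against control, where cytochrome c reversed to -0.017. Relative to the median of all loci, the member medians were -0.36, -0.48 and 0.12. No scaling can change these, because it multiplies all loci of a group by the same factor. Sdha was positive in both affected comparisons under every alternative run. Depth per gene is unknown, so counting error could not be given for the scarce isoforms.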
